A study of Capra hircus with 2 samples.

Results

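The miR-126 hairpin gives a mature miRNA from each of its arms, 5p and 3p, and both were measured in goat endometrium by small RNA sequencing. Its members were the known miRNA names that read miR-126 with no further letter, whatever the species prefix, arm or end annotation. Of 587 distinct known names, listed in 641 entries, 4 met this rule, in 6 entries. Each of the 4 was detected in both libraries.

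Endometrium of Xinong Saanen dairy goats, all multiparous, aged 24 months and mated naturally after synchronization of estrus, was taken on gestational day 5 (pre-receptive) or gestational day 15 (receptive). No other treatment separated the groups, which differed in the day of pregnancy. At each day 10 goats were sampled, and per the study methods the RNA of 9 goats was mixed into 3 pools and sequenced in 3 runs. The deposited values give 1 library per phase, P for pre-receptive and R for receptive, so differences between phases have no replicate check. Every interval here covers the counting error of reads only, and no spread between animals. Reads copied by PCR are not independent molecules, so that the intervals can be too narrow for the counting of molecules.

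miR-126 is encoded within an intron of EGFL7, a gene of endothelial cells, and is abundant in the cells that line blood vessels. The 3p strand is known to target SPRED1, PIK3R2 and VCAM1, which links it to VEGF signalling and to leukocyte adhesion. The 5p strand, once named miR-126*, is known to target DLK1 in endothelial cells. In the RefSeq annotation of the goat assembly ARS1.2, MIR126 lies inside EGFL7 and AGPAT2 is the next gene. Endometrial vessels grow and remodel in early pregnancy, which is the setting of the comparison between day 5 and day 15.

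The 4 sequences are shown because both arms and both end variants are compared below, and the miR-126b sequence because its name is close to the rule. Capitals mark the seed, bases 2 to 8 counted from the 5′ end, through which a miRNA chiefly pairs with its targets.
hsa-miR-126-5p: cATTATTActtttggtacgcg
oan-miR-126-5p_R-3_1ss18CA: cATTATTActtttggtaa
hsa-miR-126-3p: tCGTACCGtgagtaataatgcg
oan-miR-126-3p_L-1R+2: cGTACCGTgagtaataatgcgta
mmu-miR-126b-3p_1ss23GC: cGCGTACCaaaagtaataatgtc

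The full-length 5p sequence has 21 nt and the full-length 3p sequence 22 nt. Their longest run of strict base pairing covers 10 bases of 5p, cattattact, and another 6 bases, ggtacg, also pair with 3p. The 18 nt variant of 5p shares its first 17 bases with the reference, carries C18A counted from the 5′ end, and keeps the 5p seed. The 23 nt variant of 3p shares 21 bases with the reference but starts 1 base later, so that its seed is GTACCGT in place of CGTACCG. None of the 3 seeds of the miR-126 names was found in any other known name, so that 0 other names share a seed with them.

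Expression is given as normalized expression (NE), which in these files is the reads of a name divided by 1 size factor per library. The study methods define NE as the reads of a name scaled to the clean reads of its library, and the deposited values depart from that definition, so that ratios on the clean-read scale are given beside them. A single read was worth 0.860 NE in R and 1.16 NE in P, and the limit of 3 reads that a count of 0 allows was 2.58 NE in R and 3.49 NE in P. Reads of the known names summed to 1904242 in R, against 4046632 in P. A name listed for several precursors carries part of its reads in each entry, and its NE is given per entry. Each read stands for 1 small RNA whatever its length, but the efficiency of ligation of each sequence was not measured, so that levels of different miRNAs are read counts and not molar amounts.

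Both arms of miR-126 were among the abundant miRNAs of the endometrium and both had higher NE in R. The 5p arm, hsa-miR-126-5p, had 23369 NE in R (27177 reads) and 14955 NE in P (12860 reads). It ranked 13 among known names in R and 18 in P. The 3p arm, hsa-miR-126-3p, had 9450 NE in R (10990 reads) and 6315 NE in P (5430 reads). It ranked 21 in R and 34 in P by NE per entry, and 23 and 36 by reads summed over entries, while the ranks of 5p were the same either way. In each library the order of levels was therefore 5p, then 3p, and then the end variants at a far lower level.

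In the order of NE per entry, the 5p arm in R stood between hsa-miR-141-3p_R-1, an epithelial miRNA with 28337 NE, and oar-miR-181a with 20920 NE. In P it stood between mdo-miR-186-5p_R-1 with 19707 NE and oar-let-7a_2ss11GA19AT with 12419 NE. The neighbours of the 3p arm in R were hsa-miR-151b_R+3 with 9514 NE and eca-miR-24_R+1 with 8886 NE. In P they were hsa-miR-199b-5p_R-1_2ss10TC17TC with 7115 NE and mmu-miR-148a-3p_R+1 with 6292 NE. With 1 library per phase, whether such neighbours differ beyond the spread between animals was not tested.

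**Figure D1:**
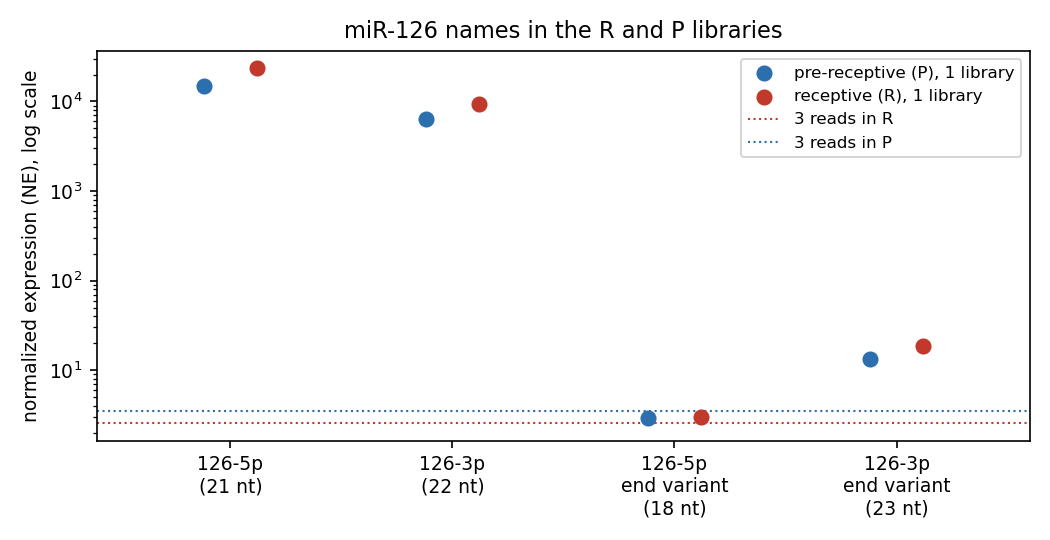
NE of the 4 miR-126 names (log axis) in the P library (blue) and the R library (red), with 1 point per library and dotted lines at the level of 3 reads. The full-length arms lie between 6315 and 23369 NE, and the end variants between 2.91 and 18.5 NE per entry.

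The question asked of the comparison is whether miR-126 differs between the receptive and the pre-receptive endometrium. On the deposited scale the 5p arm was 1.56-fold higher in R, a log2 ratio of 0.64 (95% exact Clopper-Pearson interval 0.61 to 0.67). The 3p arm was higher in R by a log2 ratio of 0.58 (0.53 to 0.63), which is 1.45-fold to 1.55-fold. Summed over both arms, miR-126 had 32840 NE in R and 21287 NE in P, a ratio of 1.54 (1.52 to 1.57). Neither arm passed 2-fold on this scale, and the interval of each lay above equality. Because the tissue was sequenced in bulk, more endothelial cells and more miR-126 per endothelial cell cannot be told apart.

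The size of the difference depended on the total to which the libraries were scaled. The paper reports that a smaller share of raw reads was kept as clean reads in R than in P. It also reports larger shares lost to the adapter and length filter and to rRNA in R. With 1 library per phase, such differences between the libraries and the phase cannot be told apart. Scaled to the clean reads, the total in the study's own definition of NE, both arms together were 2.65-fold higher in R, and scaled to the listed reads of known names 4.43-fold. These scalings raised the log2 ratio of every name by 0.78 and by 1.52, so that the median over all names tested moved from 0.03 to 0.81 and to 1.55. By construction the distance of each arm from that median was the same under each. As a share of listed reads, which is the last of these scales, both arms made up 2.01% in R and 0.452% in P. With the 3 most abundant names left out of that total, both arms together had a log2 ratio of 1.13 in place of 2.15. That alternative was chosen after seeing the data.

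**Figure D2:**
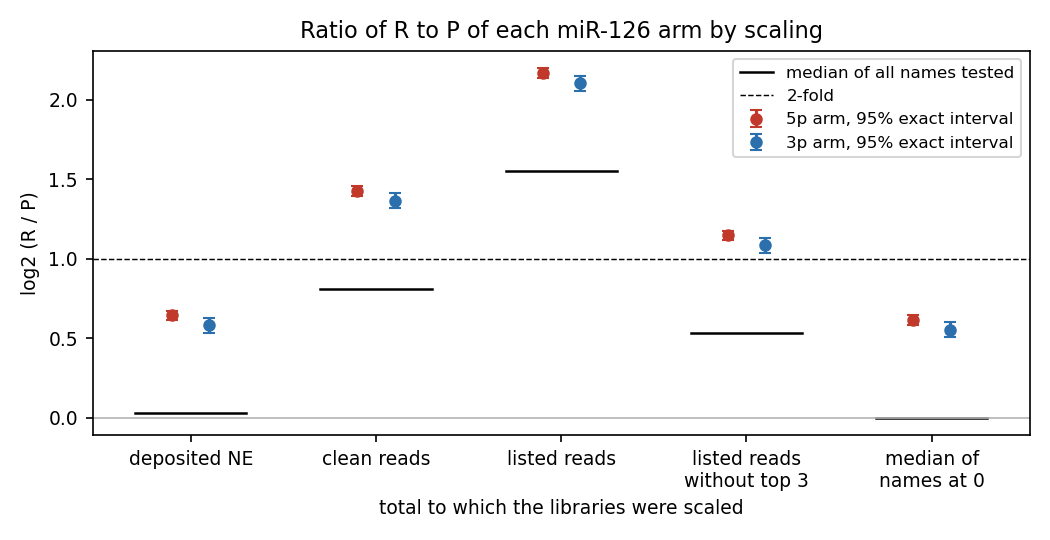
Log2 ratio of R to P of the 5p arm (red) and the 3p arm (blue) with 95% exact intervals under 5 totals, beside the median of all names tested (black bars). The 5p arm moves from 0.64 on the deposited scale to 1.43 with clean reads and 2.17 with listed reads, and the median moves with it.

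Set against all known names, the ratio of miR-126 was above the median and within the bulk of the names. Of 438 names tested, 215 were lower in R and the others higher on the deposited scale, a split that moves with the scaling. On that scale 100 were past 2-fold higher in R, which is 22.8%. Of the miR-126 names 0 of 4 were past 2-fold, and 4 of 4 had a higher NE in R, with a median log2 ratio of 0.52. Names past 2-fold lower in R were 72, or 16.4%, and none was a miR-126 name. When P under 0.05 in Fisher's exact test on recovered reads against clean reads was also required, 84 names or 19.2% were called higher in R and 37 lower, with 0 of the 4 among them. On the scale of that test every log2 ratio is 0.78 higher than on NE, so that calls lower in R met a stricter limit. With rounded NE in place of reads in the test, added after seeing the data, the counts were 73 and 47. A share of 32.9% of the names tested had a larger log2 ratio than the 5p arm and 33.6% a larger one than the 3p arm.

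The other scalings changed how many miR-126 names passed 2-fold, together with the background. With clean reads 3 of the 4 passed it, where 195 of all names tested (44.5%) did so and 30 were past 2-fold lower. With listed reads all 4 passed it, where 315 names (71.9%) did so and 13 were past 2-fold lower.

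Among abundant miRNAs the ratio of miR-126 stood further from the centre. Of 63 names (61 distinct sequences) with at least 1000 reads in both libraries, a limit chosen after the values were seen, 16 were higher in R and the median log2 ratio was −0.56 on the deposited scale. The 5p arm was in position 9 of these by its log2 ratio and the 3p arm in position 10. The 8 names above them were hsa-miR-141-3p_R-1 (2.29), oar-miR-22-3p_R+1 (1.60), bta-miR-31_R+2 (1.44), cgr-miR-142-5p_L-2R+1 (1.17), bta-miR-199b (0.90), hsa-miR-9-5p_R-2 (0.89), oar-miR-30c_R+3 (0.75) and oar-miR-30b_R+1 (0.70). miR-141 is a miRNA of epithelium and miR-142 one of leukocytes. Another leukocyte miRNA among the 63 names, hsa-miR-155-5p, was lower in R on the deposited scale, at −0.71.

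**Figure D3:**
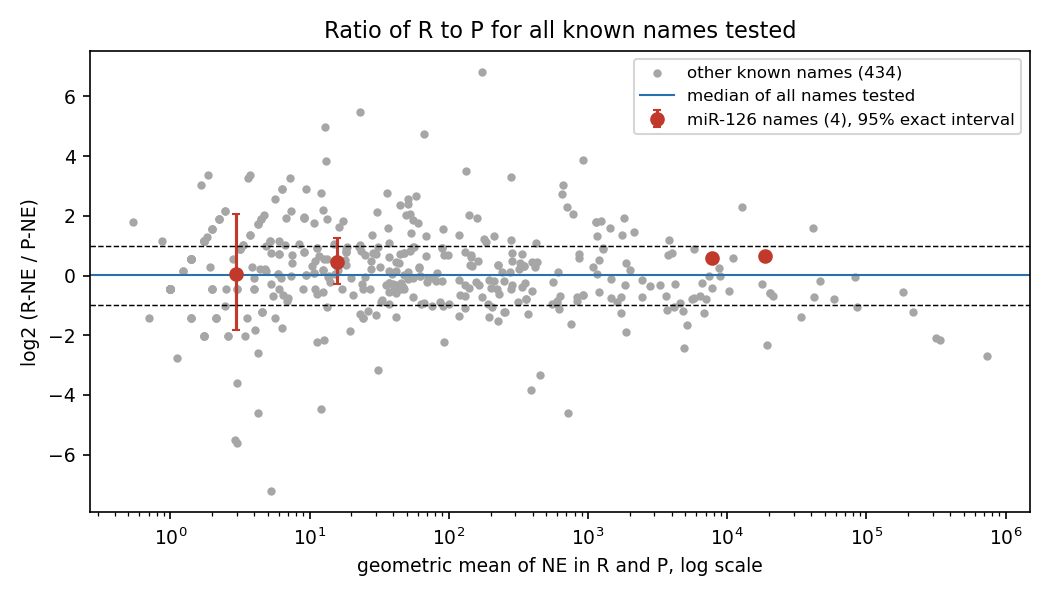
Log2 ratio of R to P against the geometric mean of NE (log axis) for the 438 names tested, with the 4 miR-126 names in red with 95% exact intervals and dashed lines at 2-fold. The full-length arms, at 0.64 and 0.58, lie above the median of 0.03 and inside the 2-fold lines.

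The end variants were a small part of each arm. The shortened 5p variant had 7 reads in R and 5 in P over its 2 entries, or 3.01 and 2.91 NE per entry, with a log2 ratio of 0.05 (−1.82 to 2.05). The 3p variant with the shifted seed had 43 reads in R and 23 in P over its 2 entries, or 18.5 and 13.4 NE per entry, with a log2 ratio of 0.47 (−0.30 to 1.26). Both intervals held equality on the deposited scale, so that a difference was not detectable at this depth. With its reads set against the clean reads, the 3p variant gave P = 0.000701 by Fisher's exact test (two-sided, 0.00158 adjusted over all names tested), and on that scale its log2 ratio was 1.25. The same exact test on its NE per entry, rounded to whole numbers and tried after seeing the data, gave P = 0.147. The 5p variant gave P = 0.388 by the exact test on reads (0.496 adjusted).

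Taken as a share of its arm, which does not depend on the scaling, no difference of the end variants between the libraries was detectable at this depth. The shifted variant held 0.390% of 3p reads in R (0.282 to 0.525) and 0.422% in P (0.268 to 0.632), with P = 0.794 by Fisher's exact test (two-sided). The shortened variant held 0.0258% of 5p reads in R (0.0104 to 0.0530) and 0.0389% in P (0.0126 to 0.0907), with P = 0.539 by the same exact test. The intervals overlapped for both arms. Nearly all miR-126 reads listed under known names thus carried the reference seeds ATTATTA and CGTACCG in both libraries.

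The 5p arm was more abundant than the 3p arm in both libraries. In R 71.2% of miR-126 reads came from 5p (95% exact interval 70.7 to 71.6), a ratio of 5p to 3p of 2.47 (2.41 to 2.52). In P the share was 70.3% (69.6 to 70.9) and the ratio 2.36 (2.29 to 2.44). The arm that carries the seed ATTATTA was thus the larger one on both days, by a ratio that differed little between them.

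The odds ratio of 5p between R and P was 1.04 (1.00 to 1.09), a difference of 0.06 in log2 arm ratio (0.01 to 0.12). Fisher's exact test (two-sided) gave P = 0.0281, and 0.0405 after Benjamini-Hochberg adjustment over the 13 hairpins tested in the same way. Adjusted over the 3 exact tests of shares within miR-126, those of the arms and of the end variant in each arm, it was 0.0842, which misses the threshold of 0.05. The test compares 2 libraries and not the phases.

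The shift of the arm ratio was small beside that of other hairpins. Of 13 hairpins with both arms named and at least 100 reads of each arm in each library, 9 (69.2%) had an adjusted P-value under 0.05 in the exact test. Of the 9, 6 had a lower share of 5p in R and 3, miR-126 among them, a higher one. miR-126 had the most reads of the 13, 56496 over both libraries, ahead of miR-125b with 47913, so that a given shift was resolved most finely for it. By the absolute difference of the log2 arm ratio it was in position 4 from the smallest, with 9 hairpins above it and miR-142, miR-125b and miR-30e below it. The median of the other 12 hairpins was 0.60.

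The widest shifts were those of miR-455, at −1.16, and miR-144, at −1.15. The 5p to 3p ratio of miR-144, a hairpin of erythroid cells, was 1.08 in R and 2.39 in P. That of miR-455 was 0.786 in R and 1.76 in P, and it was the 1 hairpin in which the larger arm was not the same in both libraries. Besides miR-126, 7 hairpins had more 5p in both libraries and 4 more 3p in both. In the order of arm ratios miR-126 was in position 6 in R, between miR-30e (7.96) and miR-423 (1.10). In P it was in position 7, between miR-144 (2.39) and miR-455 (1.76).

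**Figure D4:**
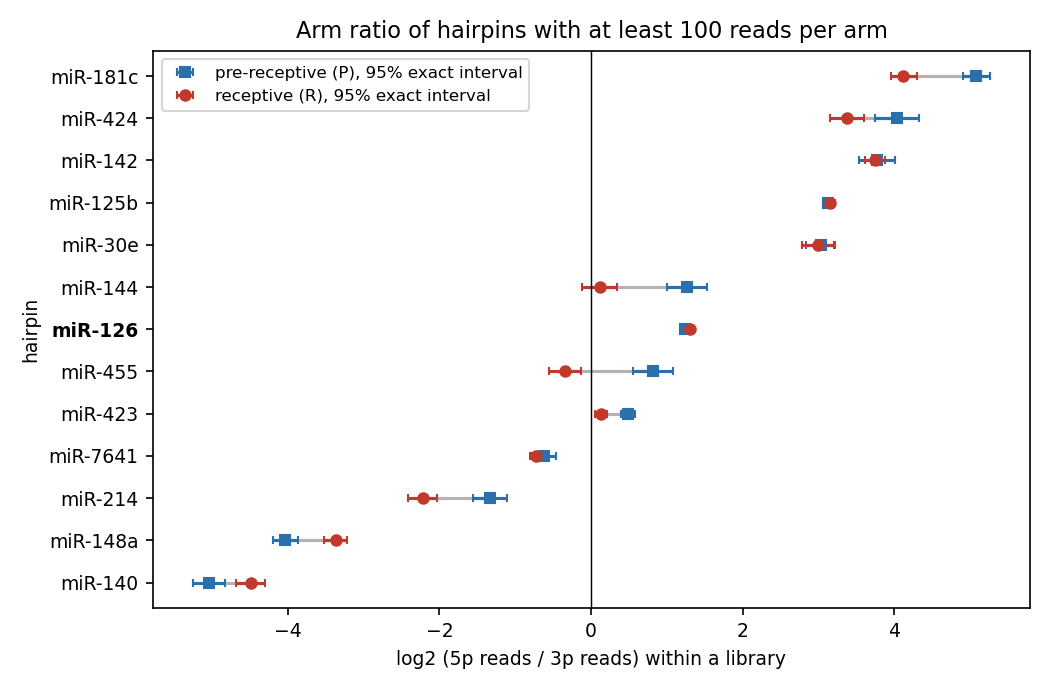
Log2 ratio of 5p to 3p reads within the R library (red circles) and the P library (blue squares) for the 13 hairpins, with 95% exact intervals and grey lines that join the libraries. The points of miR-126, at 1.30 in R and 1.24 in P, nearly coincide, as do those of miR-142, miR-125b and miR-30e.

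The related name mmu-miR-126b-3p_1ss23GC lay outside the rule and had 1 read in each library, 0.860 NE in R and 1.16 NE in P. Both are under the limit of 3 reads and no fold is given. Its first 21 bases, cgcgtaccaaaagtaataatg, are the reverse complement of the full-length 5p arm, and it differs from its own reference by G23C.

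The names nearest to each arm were found by the distance between log2 NE values per entry over the 2 libraries. For 5p they were mdo-miR-186-5p_R-1 (distance 0.67), mmu-let-7i-5p (0.89), sha-let-7i_R+1 (0.89), hsa-miR-125b-5p (0.99) and ssc-miR-29a_L-1R-1 (1.08). The let-7i names share a sequence. These names share the level of 5p more than its direction. The log2 ratio of deposited NE was −0.30 for mdo-miR-186-5p_R-1 and −0.70 for hsa-miR-125b-5p, and 0.57 for ssc-miR-29a_L-1R-1, which was the 1 of the 5 higher in R. Scaled to clean reads all 5 were higher in R.

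For 3p the nearest were hsa-miR-151b_R+3 (distance 0.35), oar-miR-16b_R+2 (0.44), eca-miR-24_R+1 (0.52), bta-miR-199b (0.63) and hsa-miR-199b-5p_R-1_2ss10TC17TC (0.68). Of these hsa-miR-151b_R+3, with 9514 NE in R and 8060 NE in P, had a log2 ratio of 0.24, and bta-miR-199b, with 7929 and 4238 NE, one of 0.90. With 2 libraries the distance describes levels only.

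On the deposited scale other miRNAs studied in blood vessels and angiogenesis did not move in 1 direction. Of the 32 vascular names tested, 8 (25.0%) were past 2-fold higher in R and 4 (12.5%) past 2-fold lower, beside 22.8% and 16.4% of all names, and their median log2 ratio was 0.38 beside 0.03. Of the 8, 3 had at most 3 reads in P, hsa-miR-19a-5p_L+1R-3 and the paired names of miR-139-3p, each with an interval that held equality. Among the 28 vascular names with more than 3 reads in both libraries, a limit added after seeing the data, 5 (17.9%) were past 2-fold higher and 4 (14.3%) lower, beside 18.2% and 14.6% of the 336 such names in all, and the median was 0.20. The list had 22 labels, of which 17 were found, in 37 names. The most abundant, oar-miR-10b_L+1R-1, had 160642 NE in R and 718168 NE in P, a log2 ratio of −2.16, and with it the summed NE of the list was 367686 in R and 1450938 in P.

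Among the vascular names past 2-fold higher, bta-miR-210_L-1R+1, of the miRNA induced by hypoxia, had 156 NE in R and 53.5 NE in P, a log2 ratio of 1.55 (1.08 to 2.05). hsa-miR-132-5p counted 109 reads in R against 12 in P, a log2 ratio of 2.75 (1.88 to 3.74), and hsa-miR-17-5p, of the miR-17-92 cluster, one of 1.08. Names of the same cluster differed in direction on the deposited scale, with log2 ratios of −1.08 for age-miR-19a_1ss23AT and −0.86 for mdo-miR-92a-3p_R+2, both of which turned positive with listed reads. Among those lower, oar-miR-10a_R+1_1ss12TA had a log2 ratio of −2.09, from the same sequence as oar-miR-10b_L+1R-1, and cgr-miR-130a-3p_R+1_1ss22TC one of −1.33, which turned positive with listed reads. On the deposited scale 20 of 32 names lay within 2-fold, as did miR-126. With clean reads 16 of the 32 (50.0%) were past 2-fold higher in R and 2 lower, beside 195 (44.5%) and 30 of all 438 names. With listed reads 25 (78.1%) were higher and 0 lower, beside 315 (71.9%) and 13 of all names. Of the vascular names, oar-miR-23b_L-1R+2, oar-miR-27a_R-2_1ss13AG and cgr-miR-23b-5p_R+1 were at 0 in R, and hsa-miR-222-5p_R-1 and hsa-miR-210-5p_R+1_1ss5CA were at 0 in P. All of these had at most 5 reads in the other library.

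On the deposited scale miRNAs of epithelium and of muscle differed by more than miR-126. The part of any list of other cell types in the miR-126 difference was not tested. Of 11 epithelial names tested, 10 were past 2-fold higher in R, beside 22.8% of all names, with a median log2 ratio of 2.73 and a summed NE of 34929 in R and 6747 in P. The most abundant was hsa-miR-141-3p_R-1 with 28337 and 5791 NE, and mmu-miR-203-5p_1ss11GA was at 0 in P. Among the 7 epithelial names with more than 3 reads in both libraries, 7 were past 2-fold higher, with the same median. All 10 names of muscle and mural cells, the contractile cells around vessels included, were past 2-fold lower in R on the deposited scale. Of all names 16.4% were past 2-fold lower on that scale. The muscle and mural median was −3.50 and the summed NE 292689 in R and 1884746 in P. One of the names, hsa-miR-143-5p_1ss22TA, at −1.28, turned higher with listed reads. Of the 10, 3 had at most 1 read in R, and the 7 with more than 3 reads in both libraries, all past 2-fold lower, had a median of −2.69. Of all 336 names with more than 3 reads in both libraries, 18.2% were past 2-fold higher and 14.6% lower. The most abundant, aja-miR-143_1ss22GT, had 289634 and 1866274 NE. With listed reads the muscle and mural median was −1.98 and both arms of miR-126 together stood at 2.15, so that the order of these margins depended on the scaling.

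Lists of blood cells and fibroblasts lay nearer to miR-126. Of 3 leukocyte names tested 2 were past 2-fold higher in R on the deposited scale, beside 22.8% of all names. These 2 are the 2 arms of miR-142. The third, hsa-miR-155-5p, was lower on the deposited scale, with 1348 NE in R, against 2211 in P, a log2 ratio of −0.71 (−0.81 to −0.62) that turned positive with clean reads. The list median of 1.17 is the value of miR-142-5p, and the summed NE was 7463 in R and 4920 in P. The most abundant, cgr-miR-142-5p_L-2R+1, had 5689 NE in R, against 2524 in P. The myeloid miR-223, as oan-miR-223-3p_1ss22AT, was at 0 in P with 1 read in R, as was hsa-miR-155-3p_2ss4CN10AG.

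Of 6 erythroid names tested, 0 were past 2-fold on the deposited scale, where 22.8% of all names were past 2-fold higher and 16.4% lower. The erythroid median log2 ratio was −0.16 and the summed NE 6107 in R and 9425 in P. The most abundant was cgr-miR-486-5p with 5052 and 8073 NE. miR-451, abundant in red cells, was listed only as an end variant, ssc-miR-451_L+3R-1, with 2 reads in R and 1 in P. The level of its reference form cannot be read from that variant. Without the variant, the 5 names with more than 3 reads in both libraries had a median of −0.68. Of 7 fibroblast names, 0 were past 2-fold on the deposited scale, beside the same shares of all names. The fibroblast median was −0.05 and the summed NE 97321 in R and 97155 in P. The most abundant was oar-miR-199a-3p with 82015 and 84822 NE. The erythroid and fibroblast medians turned positive when scaled to clean reads, at 0.62 and 0.73, where 3 of the 6 and 2 of the 7 names were past 2-fold higher in R. With listed reads these counts were 3 and 7. Of all names 44.5% were past 2-fold higher with clean reads and 71.9% with listed reads, and nothing particular to these lists is read from the counts. Some names in these lists share a sequence, as do pairs of miR-20a, miR-139 and miR-144 and the pair of miR-10a and miR-10b, and were counted as listed. By distinct sequence the vascular list held 27, with 7 past 2-fold higher in R and 3 lower, and the erythroid list held 4.

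**Figure D5:**
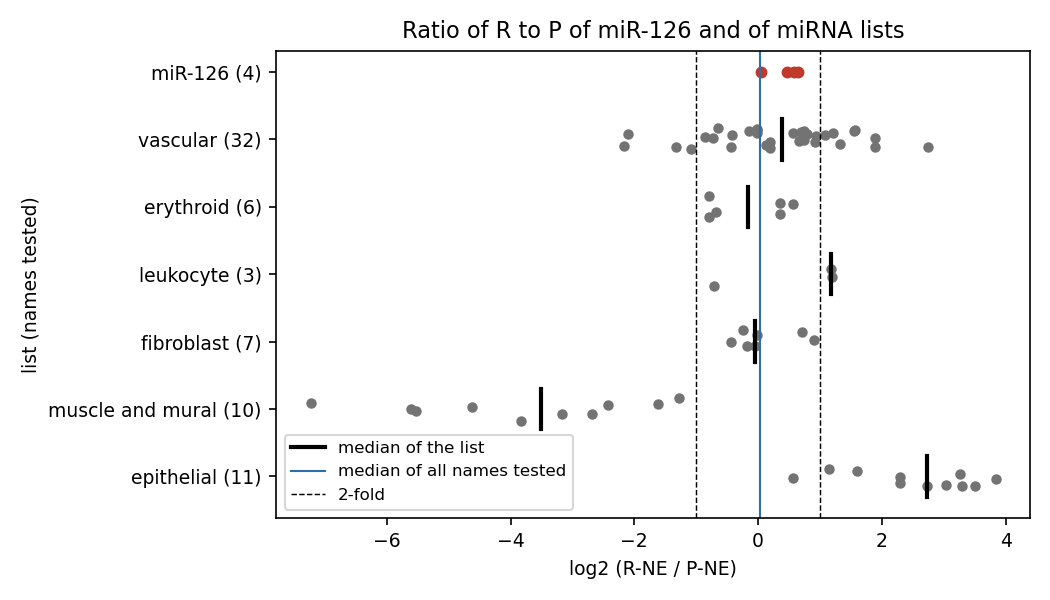
Log2 ratio of R to P on the deposited NE scale for the miR-126 names (red) and the tested names of each list (grey points, spread vertically for visibility), with the list median (black), the median of all names tested (blue) and dashed lines at 2-fold. The 4 miR-126 names lie between 0.05 and 0.64, the muscle and mural names all at or below −1.28 and the epithelial names all at or above 0.56.

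The endothelial label of miR-126 is general knowledge and could be set only beside miRNAs here, since these files measure no mRNA of endothelial cells. In the deposited table of conservation, which lists the known miRNAs by species, 12 of 23 species list mir-126, and mouse and rat list mir-126a and mir-126b. Neither form was listed for 9 species, among them gorilla and sheep, and 7 of the 9 have at most 16 names in that table. In the deposited table of predicted targets 0 pairs involve a miR-126 name. The paper predicted targets for its differentially expressed miRNAs, with miR-126 not among them, so that the 0 is no result of prediction. Targets of miR-126 were not analysed here. In the deposited table of differential expression 3 of the 4 names are listed, with the NE used here (equal within 0.0051), and the shortened 5p variant is not listed there. A listing in that table is not a call of a difference. The miRNAs that the paper reports as differentially expressed include no miR-126 name.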

How the data were processed

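Small RNA libraries of 18 to 26 nt reads were matched by the authors to miRBase 20.0, and the deposited signal per known miRNA is normalized expression (NE). NE was found to be reads divided by 1 size factor per library, and reads were recovered by dividing by the worth of 1 read, with 85.2% (R) and 87.5% (P) of detected names whole within 0.01. For 54 repeated names, with equal values in every entry, NE was counted once. Reads of such names were summed over entries, except in arm sums. The deposited ratio, log2 and P-value columns of the authors' own comparison, and the table of candidates, in which no miR-126 name is listed, were not used.

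Names above 0 in both libraries and with at least 1 NE in 1 library were tested. Arm ratios were compared with Fisher's exact test (two-sided) on rounded reads, and adjustment was by Benjamini-Hochberg. Calls over all names took P under 0.05 by that test, on reads against clean reads, and more than 2-fold on NE. The formula of the study takes NE in place of reads, so these calls are not those of the study. The steps were tested on simulated data.

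Names given in the text were the members, miR-126b, the 5 nearest names per arm, neighbours in rank and in arm ratio, and the most abundant and absent names of each list. The other vascular names, hsa-miR-155-5p, hsa-miR-143-5p_1ss22TA and ssc-miR-451_L+3R-1 were picked once their values had been seen. So were the widest arm shifts, the 3 smaller arm shifts and the names among abundant miRNAs. The members and lists were chosen with earlier results of these data known. Alternatives were other scalings, filters, pseudocounts and definitions of an arm. The software was scipy 1.17.1, numpy 2.4.6, matplotlib 3.10.9 and pandas 2.3.3 under Python 3.11.15.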

Additional observations from a re-analysis of the deposited data

How the results depend on the processing

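No paired analysis was possible because each phase has 1 library. Over 124 alternative values, 53 moved and 71 did not, staying within their counting interval, within 1.5 times the count or, for the arm difference, on the same side of the threshold. The erythroid and fibroblast medians changed sign. With clean reads the log2 ratio was 1.43 for 5p, 1.36 for 3p and 1.41 for both arms. With listed reads it was 2.17, 2.10 and 2.15. Without the 3 most abundant names in that total, an alternative chosen after seeing the data, it was 1.15, 1.08 and 1.13. With the median of all names set to 0 both arms together gave 0.60. The arm ratios and their difference stayed within their intervals under every definition of an arm and of reads that was tried. When every name had to carry an arm, an alternative that was not planned, 7 of 10 hairpins differed. Names past 2-fold higher in R were 195 with clean reads, 315 with listed reads, 163 without the top 3 names and 47 with at least 10 reads in both libraries, and those lower were 30, 13, 34 and 40. With the exact test on reads also required, the names higher were 158, 210, 131 and 47, beside 84 on the deposited scale, and those lower 19, 10, 22 and 30, beside 37. With that test on rounded NE, added after seeing the data, they were 73 and 47. The list medians with clean and listed reads were 1.16 and 1.90 (vascular), 0.62 and 1.36 (erythroid), 1.96 and 2.70 (leukocyte), 3.51 and 4.25 (epithelial), −2.72 and −1.98 (muscle and mural), and 0.73 and 1.47 (fibroblast). With clean and listed reads 16 and 25 vascular names were past 2-fold higher and 2 and 0 lower, 3 and 3 erythroid and 2 and 7 fibroblast names were higher, and with more than 3 reads 5 vascular names were. The shifts between scalings follow from their construction, and which scaling is nearer to the tissue was not tested. Depth limits the 5p variant, with 7 and 5 reads.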
